A study of Homo sapiens with 8 samples.

Results

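Base excision, nucleotide excision and mismatch repair are the routes by which human cells mend damaged, bulky or mispaired bases in a DNA strand. The 36 genes described here were taken from a list of named repair genes, 18 of base excision, 12 of nucleotide excision and 6 of mismatch repair, among 36955 genes with a transcript of 300 nt or more in the deposited tables. The list was drawn up by name and without a rule on measured values, but with earlier results of these data known. HEK293 cells, an established human embryonic kidney line, received an siRNA (Control siRNA or AUF1 siRNA) or a vector (Empty Vector, or Flag-AUF1 in its p37, p40, p42 or p45 form, or these 4 forms at once), and total RNA of each group was sequenced as 1 library. AUF1, the product of HNRNPD, binds AU-rich sequence in mRNA. All groups are the same line, which itself expresses HNRNPD, and its passage number is listed as unknown.

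In base excision repair a glycosylase removes a damaged base, an endonuclease cuts the strand at the empty site, and a polymerase and a ligase close the gap. Nucleotide excision repair finds helix-distorting damage either anywhere in the genome or where RNA polymerase stalls, opens the helix, and cuts out a short stretch. Mismatch repair recognises mispaired bases after replication, and an exonuclease removes the new strand for resynthesis.

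A level is the sum of FPKM (fragments normalised to transcript length and library size) over the transcripts of a gene, scaled between libraries. A ratio is log2(level + 1 FPKM) in 1 library minus that in its control library. The AUF1 siRNA library was set against Control siRNA and the overexpression libraries against Empty Vector, which is shared by all 5. A gene was tested where the mean of both libraries reached 5 FPKM and both were above 0, and it was called higher or lower at 2-fold. With 1 library per group there is no replicate check, no p-value was computed, and a call compares 2 libraries only. A second measure, the length-weighted sum, multiplies each transcript's FPKM by its length in kilobases, so that short transcripts count for less.

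HNRNPD stood at 296.8 FPKM with Control siRNA and at 167.3 FPKM, 56.4% of it, with AUF1 siRNA. In the overexpression libraries it was 9.62 to 15.63 times the Empty Vector level. Of 6 HEK293 marker genes 4 had values, which summed to 57.5 to 79.0 FPKM, while 8 fibroblast markers summed to 10.5 to 19.9 FPKM and 5 markers of a cervical carcinoma line to 49.5 to 74.1 FPKM. AUF1 siRNA was the highest library for both of the last lists, with fibroblast markers at 19.9 FPKM against 12.6 FPKM in Control siRNA and cervical markers at 74.1 FPKM against 66.5 FPKM. Against Control siRNA, CD44 at 1.24 and the HEK293 marker PAX2 at 1.89 were past 2-fold on summed FPKM (log2 ratio). On the length-weighted sum CD44 was not called, and the fibroblast markers PDGFRB at 1.06 and TWIST2 at 1.25 were. PAX2 was at 1.71 there, but 3 of 4 tested HEK293 markers were below 0, with a median of -0.31. Against Empty Vector, CD44 was called lower in p40 (-1.38) and p45 (-2.39) on summed FPKM. The part of these markers in the repair-gene values was not tested. The 8 libraries had relative depths (coverage per FPKM) of 0.213 to 0.345, with AUF1 siRNA at 0.322 and Control siRNA at 0.246. AUF1 siRNA had the most transcripts assembled from the reads, 11813, and Control siRNA the fewest, 7198. The part of this difference in their ratios was not tested.

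On summed FPKM 5 of the 28 repair genes tested in at least 1 of 6 comparisons were called in 1 or more of them: EXO1, ERCC6, SMUG1, ERCC4 and XPA. Over all genes tested at least once, that share was 23.6%. ERCC4 reached the minimum mean of 5 FPKM in its called comparisons only through Empty Vector. On the length-weighted sum 0 of 31 were called, beside 10.5% of all genes. Another 8 genes were tested in no comparison on summed FPKM (OGG1, NTHL1, NEIL2, MPG, MUTYH, ERCC5, MSH3 and MLH3), and 26 were tested in all 6.

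**Figure D1:**
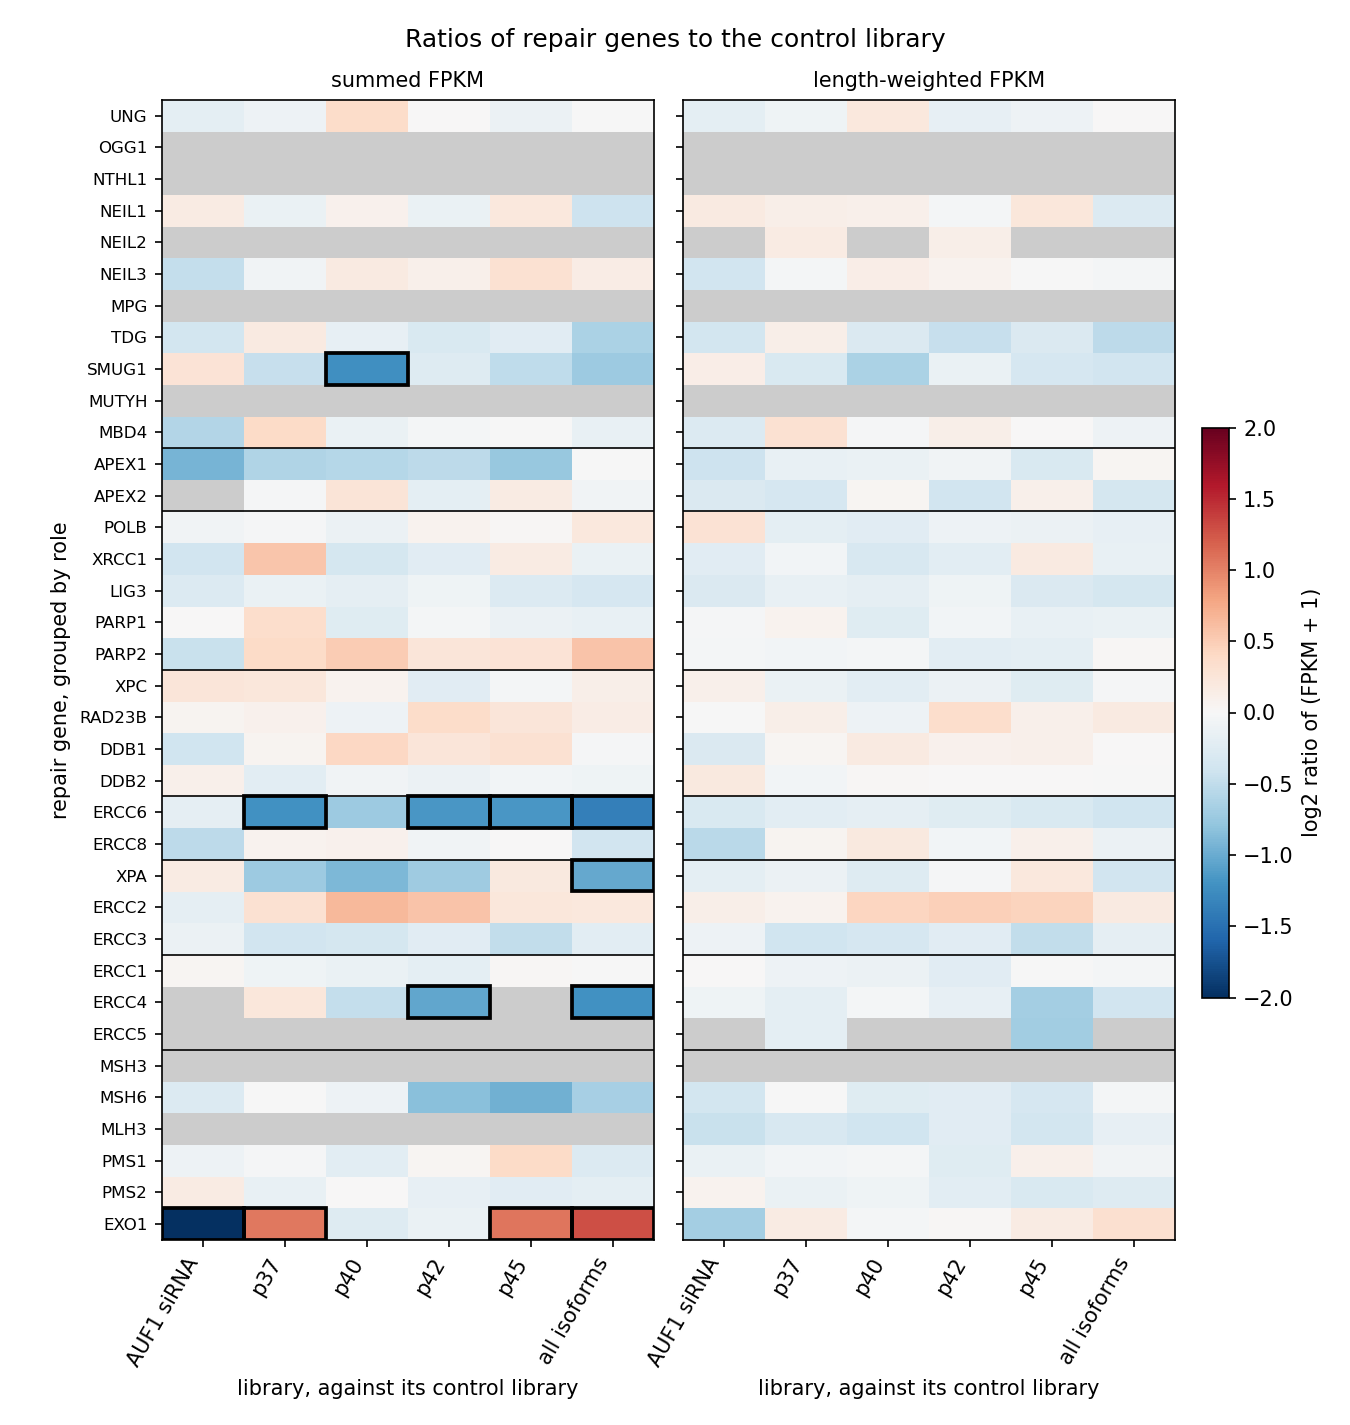
Log2 ratio of each of the 36 repair genes (rows, grouped by role) in the AUF1 siRNA library against Control siRNA and in the 5 overexpression libraries against Empty Vector (columns), on summed FPKM (left) and length-weighted FPKM (right). Grey cells were not tested and black frames mark ratios of 2-fold or more, of which the left panel holds 12, over 5 genes, and the right panel 0.

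Against Control siRNA the AUF1 siRNA library had 1 called gene of 26 tested, EXO1, where 13.1% of all tested genes passed 2-fold. Those calls were 1060 genes higher and 344 lower, so that 3.21% were called lower, as EXO1 was. The median ratio of the 26 was -0.18 and that of all tested genes -0.04, and 17 of the 26 were below 0. By length-weighted sum 0 of 29 were called against a background of 8.19%, made of 907 genes higher and 96 lower (0.784% lower). Their median was -0.19 and 21 of 29 were below 0. Of all tested genes 53.3% were below 0 on summed FPKM and 54.5% by length-weighted sum. With 75th percentile scaling, which moves the median of all genes to 0.10, 14 of 26 were below 0 and their median was -0.05. Relative to all genes, the repair genes lay at a median of -0.14 on the log2 scale by summed FPKM and -0.15 by length-weighted sum. With Ensembl identifiers only, an alternative chosen after seeing the data, their median was -0.003, beside -0.03 for all genes.

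In the overexpression libraries the called genes were 2 of 28 for p37 (background 5.63%), 1 of 28 for p40 (6.74%), 2 of 28 for p42 (5.64%), 2 of 27 for p45 (8.0%) and 4 of 28 for all isoforms (6.25%). Their medians were -0.02, -0.12, -0.13, 0.01 and -0.14 in that order, beside medians of all genes between -0.02 and -0.01. By length-weighted sum 0 were called against backgrounds of 0.797%, 1.44%, 0.979%, 2.41% and 1.04%. The 2 control libraries, set against each other, had 2 called repair genes of 27, EXO1 and SMUG1, beside 7.61% of all genes. The length-weighted sum had 0 of 29 there, beside 1.83%. The genes called in all isoforms were EXO1, ERCC6, ERCC4 and XPA, of which ERCC4 was testable only through its Empty Vector level.

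Of the 11 DNA glycosylases, which each recognise a set of damaged bases, 6 were tested in every comparison on summed FPKM. SMUG1, which removes uracil from DNA, had the highest mean level. It stood at 33.2 FPKM in Control siRNA, 40.4 in AUF1 siRNA, 80.9 in Empty Vector, 58.4 in p37, 34.1 in p40, 67.2 in p42, 56.9 in p45 and 48.8 in all isoforms. The Empty Vector library was the highest and the 2 controls lay at opposite ends of the range. SMUG1 was called lower in p40, at -1.22, but against Control siRNA p40 was at 0.04. All of its FPKM came from transcripts under 1000 nt, mostly short models assembled from the reads.

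UNG, the main uracil glycosylase of replicating cells, stood at 9.66 FPKM with AUF1 siRNA and at 10.2 to 14.7 FPKM in the other 7 libraries. A 296 nt UNG transcript, ENST00000542183, was left out by the length filter, although it was listed at 59.0 to 77.8 FPKM in all 8. NEIL3, which acts on oxidised bases, was at 6.52 FPKM with AUF1 siRNA and at 7.71 to 10.3 FPKM elsewhere. TDG and MBD4, which excise thymine from G:T mispairs, ranged from 11.4 to 22.8 FPKM and from 18.0 to 28.1 FPKM. NEIL1, another oxidised-base glycosylase, ranged from 5.33 to 8.74 FPKM.

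The remaining glycosylases were low or listed at 0, and an exact 0 in these tables may be a failed estimate. OGG1, which excises oxidised guanine, was listed at 0 in all 8 libraries. NTHL1 was above 0 only with Control siRNA, at 9.72 FPKM, and MUTYH only with p40 and p42, at 8.18 and 10.8 FPKM. MPG, the alkyladenine glycosylase, was listed at 0 with AUF1 siRNA and with Empty Vector and stood at 3.34 to 5.55 FPKM in the other 6. NEIL2 ranged from 1.28 to 5.30 FPKM. No ratio was taken for these 5 genes on summed FPKM.

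APEX1 is the major endonuclease that cuts at the empty site. It stood at 125.9 FPKM in Control siRNA, 65.6 in AUF1 siRNA, 116.8 in Empty Vector, 76.9 in p37, 78.7 in p40, 80.9 in p42, 69.0 in p45 and 116.1 in all isoforms. Control siRNA, Empty Vector and all isoforms were thus high and 5 libraries low, and AUF1 siRNA was the lowest of the 8, with a ratio of -0.93 that fell short of the call. The 3 high libraries were those in which a 451 nt coding transcript, ENST00000438886, was listed at 43.1 to 50.4 FPKM, while it was listed at 0 in the other 5. On transcripts of 1000 nt or more, scaled on their own, APEX1 ranged from 68.3 to 81.3 FPKM, with AUF1 siRNA again the lowest. APEX2, a minor relative, was at 2.96 FPKM with AUF1 siRNA and at 5.39 to 7.74 FPKM elsewhere.

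PARP1, which senses strand breaks and marks them with poly(ADP-ribose), had the highest level of the 36 genes, but that level is not a measure of its full-length mRNA. The sums were 1032 FPKM in Control siRNA, 1043 in AUF1 siRNA, 1161 in Empty Vector, 1479 in p37, 985.5 in p40, 1125 in p42, 1075 in p45 and 1046 in all isoforms. Transcripts under 1000 nt held 96.7% to 97.9% of these sums. The main one was ENST00000432338, a 750 nt model whose listed ends are 2492890 bases apart on hg19 chromosome 1 and which is not in GENCODE 29. The 3958 nt transcript ENST00000366794 was listed at 23.6 to 34.1 FPKM. In p37, a 617 nt assembled model held 1290 FPKM. By transcripts of 1000 nt or more PARP1 ranged from 24.6 FPKM with AUF1 siRNA to 33.8 with all isoforms.

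The other gap-filling and ligation genes had no call. POLB, the gap-filling polymerase, ranged from 10.4 to 14.5 FPKM, and LIG3, the nick ligase, from 8.75 to 11.5 FPKM, both with AUF1 siRNA as the lowest library on summed FPKM. By length-weighted sum POLB was at 10.97 with AUF1 siRNA, and Control siRNA was the lowest library at 8.80. XRCC1, the scaffold that binds LIG3, ranged from 12.6 to 24.6 FPKM and was highest with p37, where transcripts under 1000 nt held 65.7% of it. PARP2, a second break sensor, ranged from 23.1 to 34.7 FPKM.

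Of the 4 damage recognition genes of nucleotide excision repair, 0 were called. DDB1, a subunit of the ubiquitin ligase that binds ultraviolet lesions, had the highest level of the 4 on summed FPKM. It stood at 135.7 FPKM in Control siRNA, 102.3 in AUF1 siRNA, 100.3 in Empty Vector, 104.3 in p37, 133.9 in p40, 118.9 in p42, 124.1 in p45 and 98.6 in all isoforms. The libraries formed a continuous range in which the 2 controls differed as much as any treated library did from its control. Transcripts under 1000 nt held 74.9% to 88.8% of DDB1, chiefly the 571 nt ENST00000543658, at 77.1 to 119.2 FPKM with the status LOWDATA. On transcripts of 1000 nt or more DDB1 was at 14.8 to 25.7 FPKM, below RAD23B, the partner of XPC, at 35.2 to 51.9 FPKM. DDB2, the lesion-binding partner, had the narrowest range of the repair genes above 0 in all libraries, 14.2 to 16.6 FPKM. XPC, the global damage sensor, ranged from 44.3 to 64.2 FPKM and RAD23B from 37.3 to 51.7 FPKM. The 2 short transcripts of XPC, both retained introns, held 79.4% to 94.7% of it. On transcripts of 1000 nt or more XPC was at 3.37 to 8.80 FPKM.

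ERCC6 encodes CSB, which couples repair to stalled transcription. It stood at 22.6 FPKM in Control siRNA, 19.97 in AUF1 siRNA, 45.2 in Empty Vector, 18.9 in p37, 27.0 in p40, 19.6 in p42, 19.6 in p45 and 16.9 in all isoforms. Empty Vector alone was high. ERCC6 was called lower in p37 (-1.21), p42 (-1.17), p45 (-1.17) and all isoforms (-1.37), comparisons that share this control. The 424 nt noncoding transcript ENST00000475116 (hg19 chromosome 10, 50691414 to 50714045) was listed at 26.2 FPKM with Empty Vector and at 0 in the other 7 libraries. A 660 nt coding transcript, ENST00000462247, held another 11.7 to 18.8 FPKM in all 8 libraries, always with the deposited status LOWDATA. Against Control siRNA the ratios were -0.25, -0.20, -0.20 and -0.40. ERCC8, which encodes the CSA partner of CSB, was at 15.7 FPKM with AUF1 siRNA, 23.1 with Control siRNA and 14.8 to 20.8 FPKM in the other 6.

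XPA, which verifies damage in the opened helix, stood at 12.9 FPKM in Control siRNA, 14.6 in AUF1 siRNA, 15.4 in Empty Vector, 8.85 in p37, 7.84 in p40, 8.97 in p42, 17.8 in p45 and 7.07 in all isoforms. Of the libraries, 4 lay above 12 FPKM and 4 below 9 FPKM, and the 429 nt noncoding transcript ENST00000496104 was listed at 5.65 to 9.73 FPKM in the first 4 and at 0 in the rest. The call in all isoforms was -1.02, with deposited bounds that allow -2.97 to 0.79. Without transcripts under 1000 nt this ratio was -0.07. ERCC2 and ERCC3, the XPD and XPB helicases of transcription factor TFIIH, ranged from 7.20 to 12.97 FPKM and from 7.44 to 10.8 FPKM.

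Of the 3 incision genes, ERCC1, the partner of the XPF nuclease, had the highest mean level. It stood at 7.69 FPKM in Control siRNA, 7.94 in AUF1 siRNA, 7.48 in Empty Vector, 7.02 in p37, 6.76 in p40, 6.42 in p42, 7.57 in p45 and 7.46 in all isoforms, a narrow range. ERCC4, which encodes XPF, was lower, at 2.46, 4.61, 7.44, 8.86, 5.05, 3.13, 2.16 and 2.66 FPKM in the same order. Empty Vector and p37 were the highest 2. ERCC4 was called lower in p42 (-1.03) and in all isoforms (-1.21), with bounds from -2.15 to 0.66 and from -2.50 to 0.59. In both pairs it reached the minimum mean of 5 FPKM only through Empty Vector, the library where it was high. Its mean over all 8 libraries was 4.55 FPKM, under that minimum. Against Control siRNA it was not tested in either library, so these calls carry little weight. A 1110 nt transcript, ENST00000439007, was listed at 2.44 to 5.88 FPKM in 4 libraries, Empty Vector among them, and at 0 in both called ones. ERCC5, the XPG nuclease, was above 0 only in Empty Vector, p37 and p45, at 1.00 to 2.22 FPKM.

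Among the 6 mismatch repair genes, MSH6, a subunit of the mismatch sensor, had the highest mean level. It stood at 44.0 FPKM in Control siRNA, 36.1 in AUF1 siRNA, 70.1 in Empty Vector, 70.0 in p37, 65.2 in p40, 38.9 in p42, 35.7 in p45 and 43.9 in all isoforms. The 3 libraries at 65 FPKM or more were those in which the 908 nt transcript ENST00000446255 was listed, at 35.7 to 38.3 FPKM. On the length-weighted sum MSH6 was at 103.3 with AUF1 siRNA and at 107.9 to 135.9 in the other 7, so the high group disappeared and AUF1 siRNA was the lowest. MSH3, another sensor subunit, was above 0 only with Empty Vector, at 15.5 FPKM. PMS2 and PMS1, relatives that pair with the same partner protein, ranged from 15.4 to 19.9 FPKM and from 26.1 to 41.98 FPKM, and MLH3 ranged from 2.27 to 5.57 FPKM.

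EXO1, the exonuclease that removes the mispaired strand, varied most of the repair genes that were tested in all 6 comparisons. It stood at 56.7 FPKM in Control siRNA, 13.4 in AUF1 siRNA, 23.8 in Empty Vector, 50.3 in p37, 19.7 in p40, 21.7 in p42, 51.3 in p45 and 59.5 in all isoforms. The libraries formed a high group of 4 and a low group of 4, with a control library in each group and AUF1 siRNA the lowest of all. EXO1 was called lower with AUF1 siRNA, at -2.0 with deposited bounds that allow -2.60 to -1.32. EXO1 was called higher in p37 (1.05), p45 (1.08) and all isoforms (1.29), and Control siRNA was itself 1.22 above Empty Vector.

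The split of EXO1 lay in 2 short coding transcripts. ENST00000423131 (950 nt, hg19 chromosome 1, 242011527 to 242021891, at the start of the gene) was listed at 13.4 to 17.6 FPKM and ENST00000521202 (623 nt, 242042342 to 242052891, near its end) at 20.9 to 25.7 FPKM in the high group. Both were listed at 0 in the low group. They made up 68.8% to 72.8% of EXO1 in the high libraries. Transcripts of 1000 nt or more, scaled on their own, summed to 17.1 FPKM in Control siRNA, 13.98 in AUF1 siRNA, 23.4 in Empty Vector, 14.9 in p37, 19.98 in p40, 21.8 in p42, 15.2 in p45 and 16.1 in all isoforms. On these the knockdown ratio was -0.27 and the calls of p37, p45 and all isoforms turned to -0.62, -0.59 and -0.52.

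On the length-weighted sum, which keeps both kinds of transcript, EXO1 was at 49.7 with AUF1 siRNA and at 66.2 to 85.3 in the other 7. The ratio to Control siRNA was -0.68 and the AUF1 siRNA library did not overlap the rest. The direction with AUF1 siRNA was thus the same on every one of these measures, and its size was not.

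**Figure D2:**
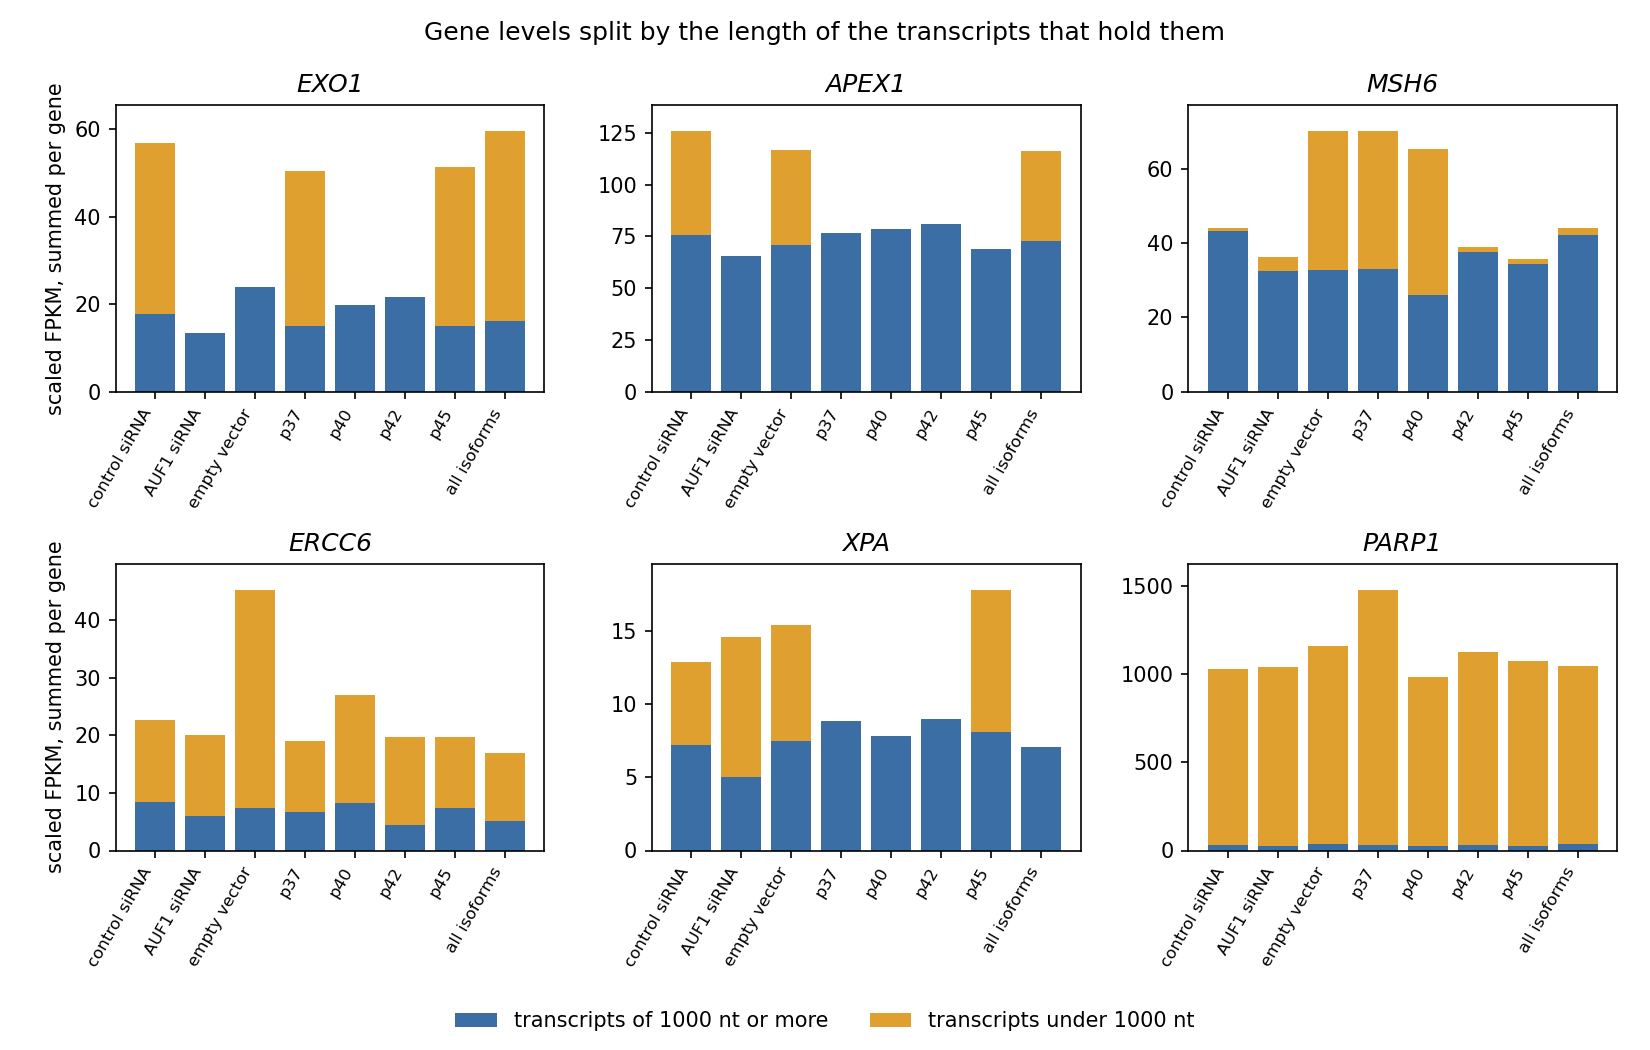
Level of 6 repair genes in each of the 8 libraries (bars, scaled FPKM summed per gene), split into transcripts of 1000 nt or more (blue) and under 1000 nt (orange). For EXO1, APEX1, MSH6 and XPA the high bars carry an orange part that is missing or small in the low bars, in ERCC6 the orange part is largest with Empty Vector, and in PARP1 it is at least 96.7% of every bar.

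Because on-off short transcripts move the summed ratios, the place of the AUF1 siRNA library among all 8 was also read from the length-weighted sum. There it lay below the other 7 libraries for 12 of 30 repair genes, where 21.7% of all genes did so. The 30 include MSH3, which was above 0 only with Empty Vector and so could be counted neither below nor above. The 12 were APEX1, APEX2, DDB1, ERCC6, ERCC8, EXO1, LIG3, MLH3, MSH6, NEIL3, PARP2 and UNG. It lay above the other 7 for 5 of 30 (DDB2, ERCC1, ERCC2, NEIL1 and PMS2), beside 19.7% of all genes. On summed FPKM the counts were 7 of 27 below (APEX1, APEX2, EXO1, LIG3, NEIL3, POLB and UNG) and 2 of 27 above (ERCC1 and PMS2), beside 19.7% and 17.2%.

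These counts moved with the scaling. Without any scaling factor 14 of 30 lay below on the length-weighted sum, beside 26.7% of genes. With 75th percentile scaling, which raises the median ratio of all genes in the AUF1 siRNA library from -0.05 to 0.14, 4 of 30 did, close to the 12.6% of all genes. These 4 were ERCC8, EXO1, MLH3 and NEIL3, and they are singled out here after their values were seen. NEIL3 was at 13.7 with AUF1 siRNA and at 18.2 to 20.9 elsewhere, ERCC8 at 16.9 and at 20.4 to 25.4, and MLH3, a relative of PMS2, at 15.3 and at 17.4 to 23.3. On summed FPKM AUF1 siRNA was not the lowest library for ERCC8, where it was the 2nd lowest, or for MLH3, where it was the 5th from the lowest.

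**Figure D3:**
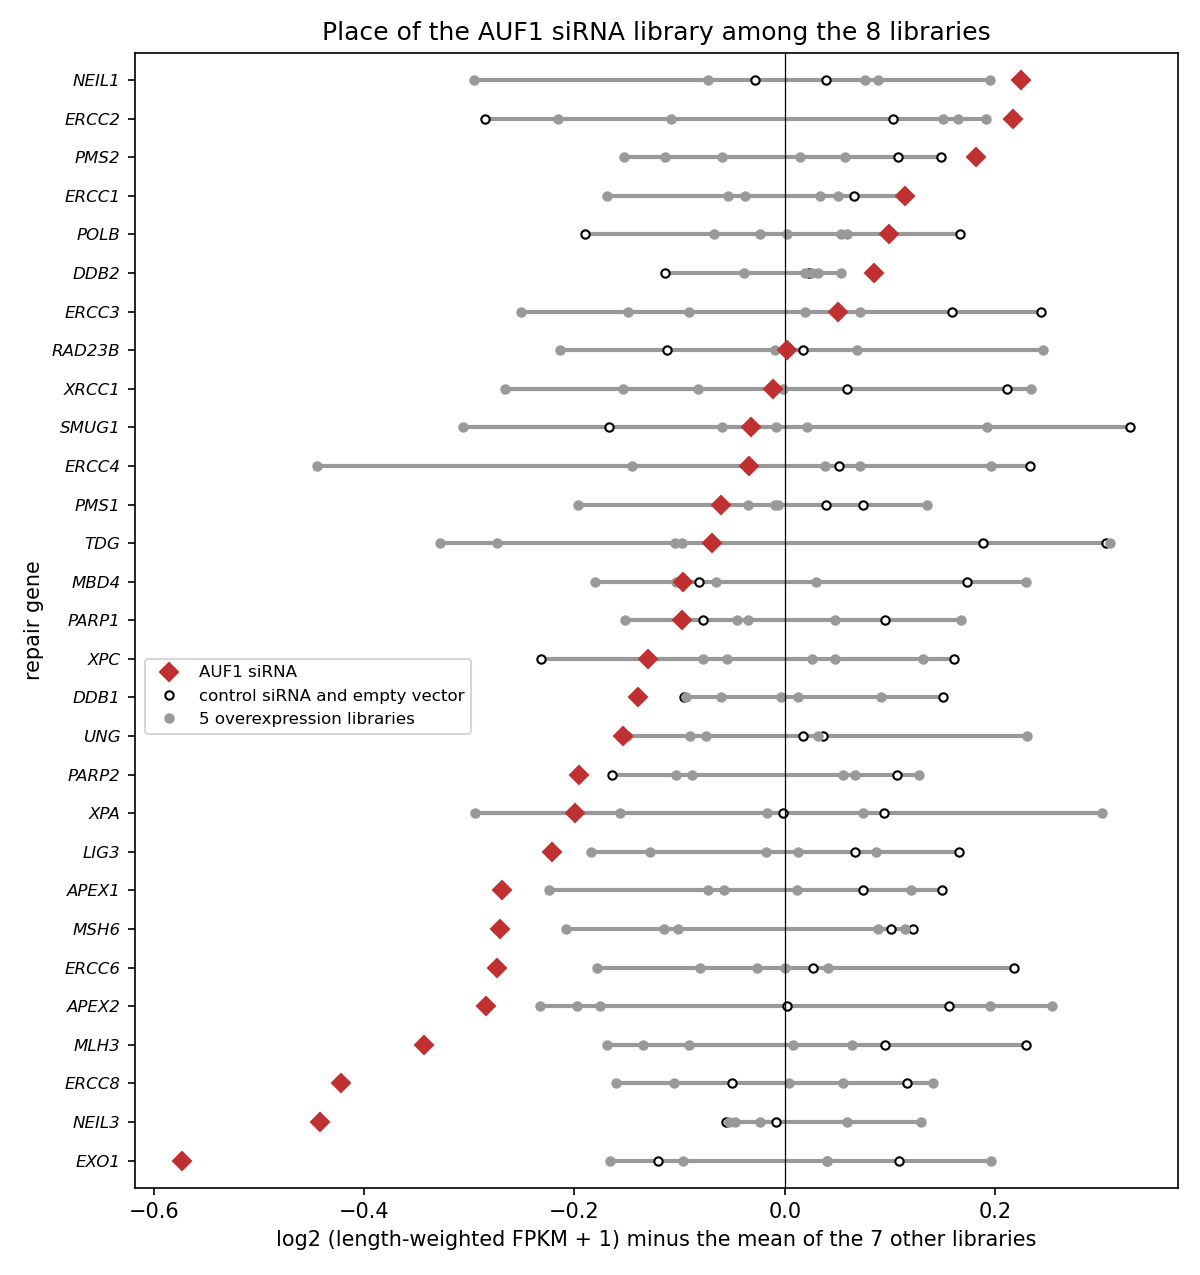
Length-weighted level of 29 repair genes in the AUF1 siRNA library (red diamonds), in the 2 control libraries (open circles) and in the 5 overexpression libraries (grey circles), on a log2 scale relative to the mean of the 7 libraries other than AUF1 siRNA, with MSH3 left out because it is listed at 0 in 7 libraries. EXO1, NEIL3, ERCC8 and MLH3 lie farthest to the left of the grey span, and most other diamonds lie within or next to it.

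On summed FPKM 10 of 12 S-phase genes were below 0 in AUF1 siRNA against Control siRNA, beside 53.3% of all tested genes. Their median was -0.23, and their summed level was 656.2 FPKM against 714.9 FPKM with Control siRNA. Over the 8 libraries that level ranged from 639.3 to 725.4 FPKM, with Empty Vector at 678.7 FPKM, so AUF1 siRNA was not the lowest library. EXO1, UNG and MSH6 are known to be higher in cycling cells, and the part of the S-phase difference in these values was not tested.

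The 5 overexpression libraries all lay below both controls for 3 of 27 repair genes on summed FPKM (APEX1, ERCC3 and LIG3), beside 6.95% of all genes. They lay above both for 0 of 27, beside 6.46%. On the length-weighted sum the counts were 4 of 30 below (ERCC1, ERCC3, MLH3 and PMS2) and 0 of 30 above, beside 8.03% and 7.06%. MSH3, among the 30, could again be counted neither way. ERCC3 was in both sets. Its levels were 10.2 and 10.8 FPKM in the controls and 7.44 to 9.23 FPKM in the overexpression libraries, while AUF1 siRNA, at 9.37 FPKM, was also below both controls.

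The other genes of these routes were read from 3 lists. Of 8 further base excision genes, PCNA, FEN1 and LIG1 among them, 7 were tested with AUF1 siRNA on summed FPKM. In each overexpression comparison 6 were tested, and 0 of the tested genes were called in any comparison. Of 18 further nucleotide excision genes 12 were tested in each, and 2 calls were made. CDK7, a TFIIH kinase, was at -1.10 in p40 (1 of 12, background 6.74%). CUL4A, the scaffold of the DDB1 ubiquitin ligase, was at -1.12 in p45 (1 of 12, background 8.0%). CDK7 stood at 12.2 FPKM with p40 and at 21.1 to 31.1 FPKM in the other 7, and CUL4A at 10.1 FPKM with p45 and at 13.02 to 27.6 FPKM elsewhere. On the length-weighted sum CDK7 was at -1.08 and CUL4A at -0.92, short of 2-fold.

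Of 9 further genes that act with mismatch repair, chiefly in resynthesis, 7 were tested. RFC1, RFC2 and POLD2 made the calls, all higher against Empty Vector. Called were 1 of 7 in p37 (background 5.63%), 2 in p40 (6.74%) and 1 in p42 (5.64%). In p45 3 were called (8.0%), in all isoforms 2 (6.25%) and in AUF1 siRNA 0 (13.1%). POLD2, a subunit of DNA polymerase delta, was at 29.2 FPKM with Empty Vector and at 53.3 to 91.7 FPKM in the other 7, Control siRNA being the highest. RFC1, the large clamp loader subunit, was at 43.3 FPKM with p40, 43.03 with p45, 23.2 with p37 and 9.61 to 13.6 FPKM in the other 5. RFC2, a smaller one, was at 17.4 FPKM with Empty Vector, 50.3 with Control siRNA and 21.1 to 70.8 FPKM in the rest. In POLD2 and RFC2 Empty Vector was the lowest library. On the length-weighted sum 0 of these 3 genes were past 2-fold in any of the 6 comparisons.

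Sequence features that may bear on AUF1 were read from the longest coding GENCODE 29 transcript of each gene, whether or not it was measured here. The pentamer ATTTA, the core of AU-rich elements, was found in the 3′ UTR of 22 of 36 repair genes, or 61.1%, and in 67.4% of 18957 protein-coding genes. The nonamer TTATTTATT was found in 0 of the 36 and in 8.2% of protein-coding genes. The repair genes' 3′ UTRs had a median of 643.5 nt, beside 1044 nt for all, and 1.81 pentamers per 1000 nt beside 2.25. EXO1, APEX1 and UNG held 0 pentamers, while ERCC6 held 11, ERCC4 9, MLH3 8 and MSH6 7. For MSH6 and UNG the transcript read had no value above 0 in these libraries. The 3′ UTR read for MSH6 was 3241 nt, while the longest MSH6 model with a value was 3184 nt in full. The pentamers of MSH6 are thus those of the annotation and not of a measured transcript.

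Promoters were searched because EXO1, MSH6 and UNG were all lowest with AUF1 siRNA on the length-weighted sum. They were picked after their values were seen, from the 12 repair genes lowest there. UNG was at 21.27 against 21.33 in the next library, and with 75th percentile scaling EXO1 alone of the 3 lay below the other 7. The RefSeq table (GRCh38.p14, 250 bases before to 50 bases after the start) held 33 of the 36 genes. The letters searched on both strands were TTTGGCGC, TTTCCCGC, TTTGCCGC and TTTCGCGC, versions of the motif of the E2F factors that drive S-phase genes. A match was found for 6 of 33 genes, or 18.2% (EXO1, MSH3, MSH6, PMS2, UNG and XPC). Over all 27305 genes in the table it was 4.0%, and these are more than the 18957 protein-coding genes above. Of the 12 lowest genes only EXO1, MSH6 and UNG were among those with a match. NEIL3, ERCC8 and MLH3, which stayed lowest with 75th percentile scaling as EXO1 did, were not. In MSH3 2 matches overlap. PMS2 was highest, not lowest, with AUF1 siRNA. The CCAAT box, searched as CCAAT on both strands, was in 57.6% of the repair genes and 39.7% of all genes. The promoters of the 3 genes follow in 5′ to 3′ direction on the coding strand, with the E2F match in capitals. A match describes letters only and says nothing of binding.
EXO1 (chr1:241847954-241848253, plus strand): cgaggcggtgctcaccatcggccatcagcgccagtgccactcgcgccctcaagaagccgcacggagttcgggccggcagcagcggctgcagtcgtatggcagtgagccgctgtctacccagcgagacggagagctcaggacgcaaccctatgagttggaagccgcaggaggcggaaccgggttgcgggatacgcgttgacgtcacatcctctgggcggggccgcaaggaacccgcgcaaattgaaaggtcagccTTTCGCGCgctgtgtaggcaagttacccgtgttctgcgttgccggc
MSH6 (chr2:47782895-47783194, plus strand): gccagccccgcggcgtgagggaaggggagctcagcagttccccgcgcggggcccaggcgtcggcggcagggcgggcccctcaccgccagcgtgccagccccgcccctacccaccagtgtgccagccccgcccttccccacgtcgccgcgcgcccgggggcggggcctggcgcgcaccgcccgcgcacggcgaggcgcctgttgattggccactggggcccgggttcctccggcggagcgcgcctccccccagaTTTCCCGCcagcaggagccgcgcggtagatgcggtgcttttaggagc
UNG (chr12:109097922-109098221, plus strand): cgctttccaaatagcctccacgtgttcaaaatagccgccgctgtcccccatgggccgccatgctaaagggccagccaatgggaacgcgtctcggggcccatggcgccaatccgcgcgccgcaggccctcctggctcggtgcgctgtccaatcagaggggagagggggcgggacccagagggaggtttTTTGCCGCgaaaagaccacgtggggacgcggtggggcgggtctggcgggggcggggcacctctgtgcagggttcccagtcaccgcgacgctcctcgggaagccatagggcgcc

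In EXO1 and MSH6 the match lies just after the annotated start, and in UNG 63 bases before it. All positions of transcripts given above are hg19 positions from the deposited tables, and these 3 promoters are GRCh38.p14 positions. No source used here states the strand of the reads, and 17 of the 36 genes overlap a gene on the opposite strand, ERCC1 with CD3EAP among them, so reads of such partners cannot be told apart.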

How the data were processed

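Total RNA of 8 HEK293 transfections, 1 library each, was amplified without poly(A) selection and sequenced on an Illumina Genome Analyzer, per the labels' protocols. Cufflinks 2.0.2 and Cuffdiff, TopHat2 2.0.6 and the build hg19 are named in the submitters' processing notes. The gene annotation's release was not stated in them. The authors deposited 1 FPKM value per transcript with lower and upper bounds, and a coverage signal, per the file headers. Coverage was a constant multiple of FPKM within each library and served only as relative depth. Read counts are unknown, so no interval that needs them was computed.

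Transcripts were matched by identifier to GENCODE 29 (136915 of 160485). A further 16460, and the models assembled from the reads, were placed through the gene or cluster of the table where that held 1 gene, or where spans overlapped by at least 0.5. Values of transcripts of 300 nt or more were summed per gene (a gene with a transcript of status FAIL was not tested) and divided by a median-of-ratios factor from 13550 genes (0.933 to 1.065). Python 3.11.15 with pandas 2.3.3 was used, and the calling steps were tested on simulated data. Members and lists were chosen with earlier results of these data known. Levels are given in every library for genes past 2-fold in any comparison and for the gene with the highest mean in each role group, and the others by range. Alternatives were other scalings, pseudocounts, minimum levels, length limits, transcript classes and the other control library.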

Additional observations from a re-analysis of the deposited data

How the results depend on the processing

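The repair genes' median ratio moved by no more than 0.199, the median size of their ratios between both controls, in any of 78 recomputations, but that allowance is larger than the knockdown median itself (-0.18). With Ensembl identifiers only the knockdown median was -0.003, beside -0.03 for all genes, and with transcripts of 1000 nt or more it was -0.10, beside -0.06. Single called ratios kept direction and call in 100 of 141, kept direction only in 31 and turned in 10. The 141 leave out recomputations in which the gene was no longer tested, so they overstate how well the calls held. Examples are ERCC4 in p42 and all isoforms against the other control, and SMUG1 in p40 with protein-coding transcripts only. The turned values were, against the other control, EXO1 in p37 at -0.17 and in p45 at -0.14 and SMUG1 in p40 at 0.037. With protein-coding transcripts only, ERCC6 was at 0.22 in p42, 0.062 in p45 and 0.19 in all isoforms. With transcripts of 1000 nt or more, an alternative chosen after seeing the data, EXO1 was at -0.62 in p37, -0.59 in p45 and -0.52 in all isoforms, and ERCC6 at 0.033 in p45.

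Counts of called repair genes that moved by more than 1.5 times were these, with the called and tested numbers of all genes beside them or in brackets. In the AUF1 siRNA library, 2 of 26 were called with no length filter, beside 1680 of 11297 genes. With status OK only 2 of 24 were called, beside 1580 of 9751 genes, and with protein-coding transcripts only 3 of 13, beside 743 of 5218. With the length-weighted sum 0 of 29 were called (1003 of 12251), and with transcripts of 1000 nt or more 0 of 23 (366 of 6673). In p37, 1 of 28 was called on FPKM as deposited (593 of 10521) and 1 of 28 against the other control (676 of 10304). With protein-coding transcripts only it was 1 of 14 (437 of 5127). With transcripts of 1000 nt or more it was 1 of 23 (132 of 6513), and by length-weighted sum 0 of 31 (94 of 11791). In p40, 0 of 29 were called with the length-weighted sum (171 of 11908) and 0 of 16 with protein-coding transcripts (459 of 5085). With transcripts of 1000 nt or more it was 0 of 25 (165 of 6531). In p42, 1 of 28 was called with 75th percentile scaling (615 of 10344) and 1 of 11 at a minimum mean of 20 (207 of 4513). With a minimum over all 8 libraries it was 1 of 27 (606 of 10572), and with status OK only 1 of 24 (871 of 9435). Against the other control it was 1 of 28 (714 of 10306), and with transcripts of 1000 nt or more 1 of 25 (168 of 6524). The length-weighted sum gave 0 of 30 (116 of 11853) and protein-coding transcripts 0 of 15 (427 of 5082). In p45, 0 of 30 were called with the length-weighted sum (290 of 12041) and 0 of 27 against the other control (911 of 10501). With transcripts of 1000 nt or more it was 0 of 23 (187 of 6549). In all isoforms, 2 of 27 were called with 75th percentile scaling (628 of 10218) and 2 of 11 at a minimum mean of 20 (222 of 4498). The length-weighted sum gave 0 of 29 (123 of 11823) and the other control 0 of 27 (852 of 10355). With transcripts of 1000 nt or more it was 0 of 22 (163 of 6493). With Ensembl identifiers only, also chosen after seeing the data, assembled models count for nothing. The counts were then 5 of 22 in AUF1 siRNA, where 1521 of 9564 genes were called, and 5 of 23 in p37 (772 of 9296 genes). They were 2 of 25 in p40 (885 of 9349) and 5 of 25 in p42 (758 of 9246). For p45 4 of 23 were called (1006 of 9380), and for all isoforms 8 of 26 (802 of 9259). The cause of these counts was not tested.

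AUF1 siRNA lay below the other 7 libraries for 13 of 27 repair genes as deposited, beside 24.0% of all genes. With 75th percentile scaling it did so for 3 of 27, beside 13.5%. At a minimum mean of 20 the number was 2, and by length-weighted sum it was 12 of 30, beside 21.7%. The last became 14 of 30 as deposited (26.7%) and 4 of 30 with 75th percentile scaling (12.6%), both chosen after seeing the data. It lay above the other 7 for 0 of 27 as deposited, beside 14.1% of all genes, and for 4 of 27 with 75th percentile scaling, beside 22.2%. By length-weighted sum it did so for 5 of 30, beside 19.7%. That number became 1 of 30 as deposited (15.8%) and 6 of 30 with 75th percentile scaling (27.0%). The number above was 0 at a minimum mean of 20, 1 with no length filter and 4 with transcripts of 1000 nt or more. Repair genes with all 5 overexpression libraries below both controls numbered 0 as deposited, 1 with 75th percentile scaling and 1 at a minimum mean of 20. They numbered 5 with status OK only, 0 with protein-coding transcripts and 0 with Ensembl identifiers only. With transcripts of 1000 nt or more 1 lay below and 2 lay above. Counts given here without a share of all genes are not read as results about the repair genes. The cause of each other move was not tested. No paired analysis was possible because each group holds 1 library. Depth is unknown beyond its relative size.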

Other observations

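Several of the further genes that act in these routes were listed at 0 in some or all libraries, as some repair genes were. RFC4, a clamp loader subunit, RPA3, a subunit of the single-strand binding protein, and POLD4, a subunit of DNA polymerase delta, were listed at 0 FPKM in all 8 libraries. RBX1, the ring subunit of the DDB1 ubiquitin ligase, was above 0 only in p45, at 19.5 FPKM. CCNH, the cyclin of TFIIH, was above 0 only in p40 and p45, at 41.6 and 31.3 FPKM.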
